A study of Homo sapiens with 12 samples.

Results

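The transcripts of 9 thyroid hormone (TH) genes were measured in 4 stably infected lines derived from A549 cells, which come from a human lung adenocarcinoma (LUAD). The genes were the deiodinases DIO1, DIO2 and DIO3, the receptors THRA and THRB, their dimer partners RXRA and RXRB, the transporter SLC16A10 and the binding protein CRYM. They were taken by symbol from the deposited table, which lists 60623 genes, and all 9 were found in it. Each line was made by lentiviral infection and hygromycin selection (200 ug/ml for 72 h). V cells carried the empty vector pLV-EF1a-IRES-Hygro, WT cells carried wild-type HA-AHR, SA cells carried HA-AHR with S489A and SD cells carried HA-AHR with S489D. AHR is a transcription factor that responds to ligands, and the study used alanine at S489 as a site that cannot be phosphorylated and aspartate as a mimic of phosphorylation. All 4 lines also kept the AHR gene of A549 itself. There were 3 libraries per line, named biological replicates in the labels, and 12 in all. Each construct was present in 1 line, so a construct and any other property of its line cannot be told apart, and the p-values measure the spread between libraries of a line.

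TH reaches cells mainly as tetraiodothyronine (T4), which carries little activity of its own. DIO2 removes an outer-ring iodine and makes the active form triiodothyronine (T3), DIO3 removes an inner-ring iodine and inactivates both forms, and DIO1 can do either. Transporters carry the hormones across the plasma membrane, and T3 then binds the nuclear receptors encoded by THRA and THRB, which act on DNA mostly as heterodimers with a retinoid X receptor.

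The total of expected counts per library, which are the reads assigned to genes by RSEM, lay between 7844045 and 11765576. Levels are given in counts per 1000000 (CPM) scaled by TMM factors, which lay between 0.993 and 1.00. At these depths 3 counts, the limit that a count of 0 allows, correspond to 0.255 to 0.382 CPM, and this limit covers counting error only. The AHR transcript was at 65.8 to 74.3 CPM in the V libraries, 234 to 285 in WT libraries, 219 to 229.7 in those of SA and 202 to 220.0 in those of SD, so that all AHR libraries were above all V libraries. A gene on the same strand that shares exons with AHR, ENSG00000283321, had no count in V. Summed over both genes, the level was 469 ± 16.4 CPM for WT, 393 ± 18.9 for SA and 296 ± 8.17 for SD (mean and standard deviation, n = 3), so the summed level was lowest in SD among the AHR lines. Among the markers, the keratins KRT7, KRT8 and KRT18 were at 1369 to 3330 CPM in all libraries, whereas EPCAM had a median of 1.13 CPM and KRT19 of 0.109 CPM. Of the 5 alveolar type II markers, SFTPC, SFTPB, SFTPA1 and NKX2-1 had 15, 5, 1 and 3 counts over all 12 libraries. NAPSA went the other way, with 426 counts and 2.80 to 4.51 CPM. The libraries thus had high keratin transcripts with the surfactant markers at or near 0.

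To learn which parts of the TH pathway these cells express, the members were compared per kilobase of exon. RXRA was at 10.00 CPM per kb (mean of 12 libraries), RXRB at 9.18, THRA at 7.52, DIO2 at 2.35 and THRB at 0.900. Far below these came DIO3 at 0.241 CPM per kb, CRYM at 0.173, SLC16A10 at 0.0169 and DIO1 at 0.0104. THRA exceeded THRB 8.35-fold per unit of length, and DIO2 exceeded DIO3 9.75-fold. These ratios were 8.13 and 10.6 when the longest transcript was taken as the length. RXRA and RXRB were only 1.09-fold apart with the length of all exons and 1.69-fold with the longest transcript. Thus DIO2 was the main deiodinase transcript and THRA the main receptor transcript in all lines. The counts are per gene and do not tell the transcript forms of a gene apart.

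**Figure D1:**
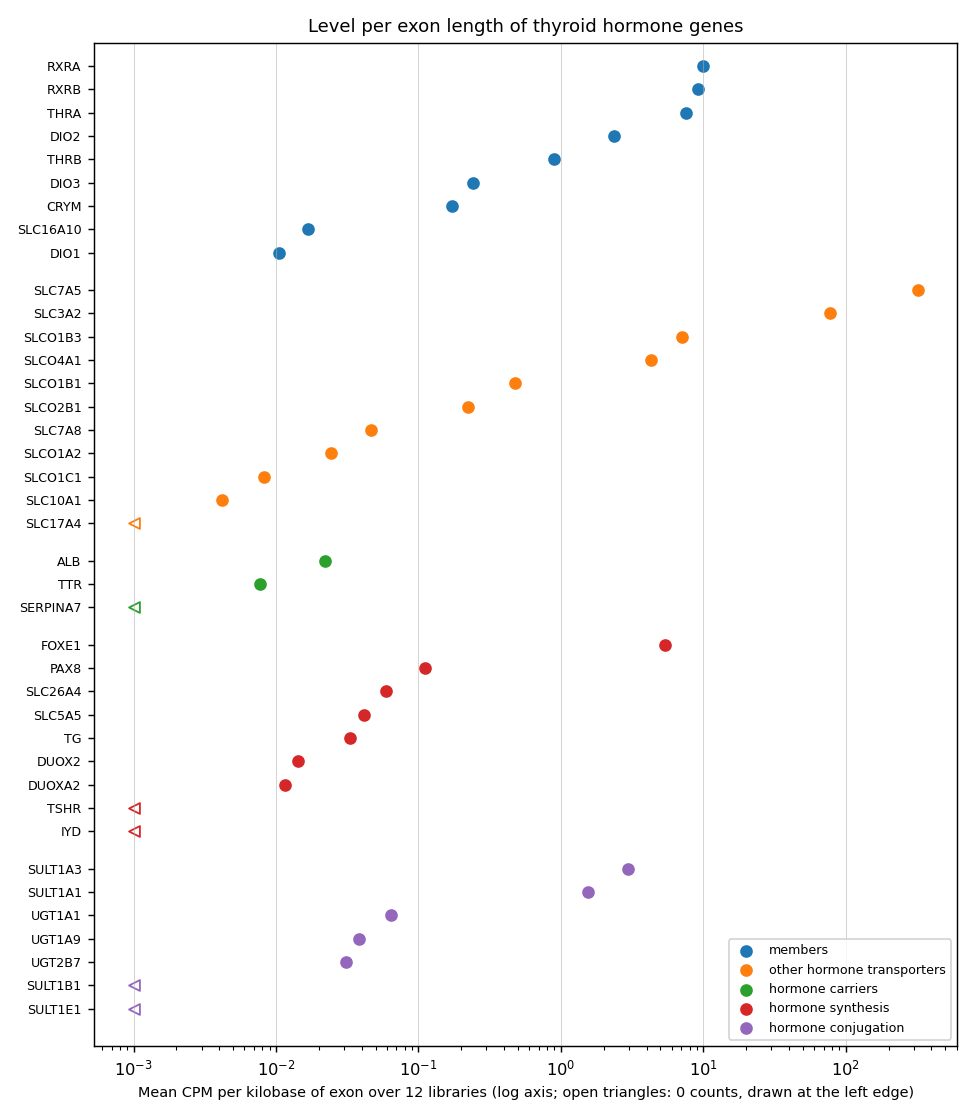
Mean level per kilobase of exon over the 12 libraries (x axis, log scale, CPM per kb) for the 9 members and for lists of other hormone transporters, hormone carriers, and genes of hormone synthesis and conjugation (y axis, 1 gene per row). RXRA, RXRB and THRA lie between 7.52 and 10.00 CPM per kb, DIO1 and SLC16A10 lie near 0.01, and open triangles mark genes without a count.

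DIO2 was the member with the clearest difference between lines. DIO2 (ENSG00000211448; GRCh38 chromosome 14, 80197527 to 80387757, minus strand) stood at 17.0, 15.4 and 18.3 CPM in the V libraries. WT libraries had 16.1, 15.8 and 14.7 CPM and SA libraries 14.8, 13.8 and 14.8 CPM. SD libraries had 22.5, 21.6 and 23.5 CPM. All 3 SD libraries were above the other 9, and the means ran from 22.5 ± 0.981 CPM in SD to 16.9 ± 1.46 in V, 15.5 ± 0.753 in WT and 14.5 ± 0.578 in SA. DIO2 was 45.1% higher in SD than in WT (log2 fold change 0.54, standard error 0.11, adjusted p = 0.0231, edgeR quasi-likelihood test). It was 55.7% higher in SD than in SA (log2 fold change 0.64, standard error 0.11, adjusted p = 0.0126). Against V the rise was 33.7% (log2 fold change 0.42, standard error 0.11, adjusted p = 0.0272). The neighbouring lines V, WT and SA did not differ beyond the test: WT against SA gave 0.10 (adjusted p = 0.892), WT against V −0.12 (0.689) and SA against V −0.22 (0.339), although all SA libraries were below all V libraries. The approximate 95% interval of SA against V ran from −0.47 to 0.02 on the log2 scale. The study picked DIO2 from these same libraries for its order across the lines and its q value in SD against WT. It also required no significant difference between SA and V, and a positive correlation with PLK1 in LUAD tumours. These tests are therefore not independent evidence of its direction, of its call in SD against WT or of the uncalled SA against V. Separately, the study reports checking the order of DIO2 in V, WT, SA and SD cells by qPCR and immunoblot. Those data were not examined here.

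Across the 4 lines together, DIO2 had an adjusted p of 8.02e-04 (edgeR, 3 degrees of freedom), and it stayed called without any 1 of the 12 libraries (adjusted p at most 0.00963). The pairwise calls were less stable. The call of SD against WT was lost without any 1 of its 6 libraries (adjusted p from 0.0514 to 0.131), with log2 fold changes of 0.50 to 0.57. The call of SD against SA was lost without SA replicate 2 (adjusted p = 0.131), and that of SD against V without V replicate 1, V replicate 2, SD replicate 2 or SD replicate 3 (adjusted p up to 0.130) and with DESeq2 (adjusted p = 0.141).

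The other deiodinases were close to the limit of detection. DIO1, the deiodinase of liver, kidney and thyroid, had 3 counts in all, 1 in SA replicate 2 and 2 in SD replicate 1, and 0 in the V and WT libraries. DIO3, which inactivates TH and is best known from placenta and fetal tissue, had 3, 7 and 5 counts in the V libraries and 0, 7 and 2 in WT. It had 4, 3 and 9 counts in SA and 6, 9 and 7 in SD. The sum over the SD libraries was 22 counts (95% Poisson interval 13.8 to 33.3) and the sum over the WT libraries 9 (4.12 to 17.1), and the libraries of the lines overlapped in every pair. No difference in DIO1 or DIO3 was detectable at this depth. DIO2 made up 94.9% or more of the deiodinase counts of each library (lowest Wilson 95% bound 90.6%).

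**Figure D2:**
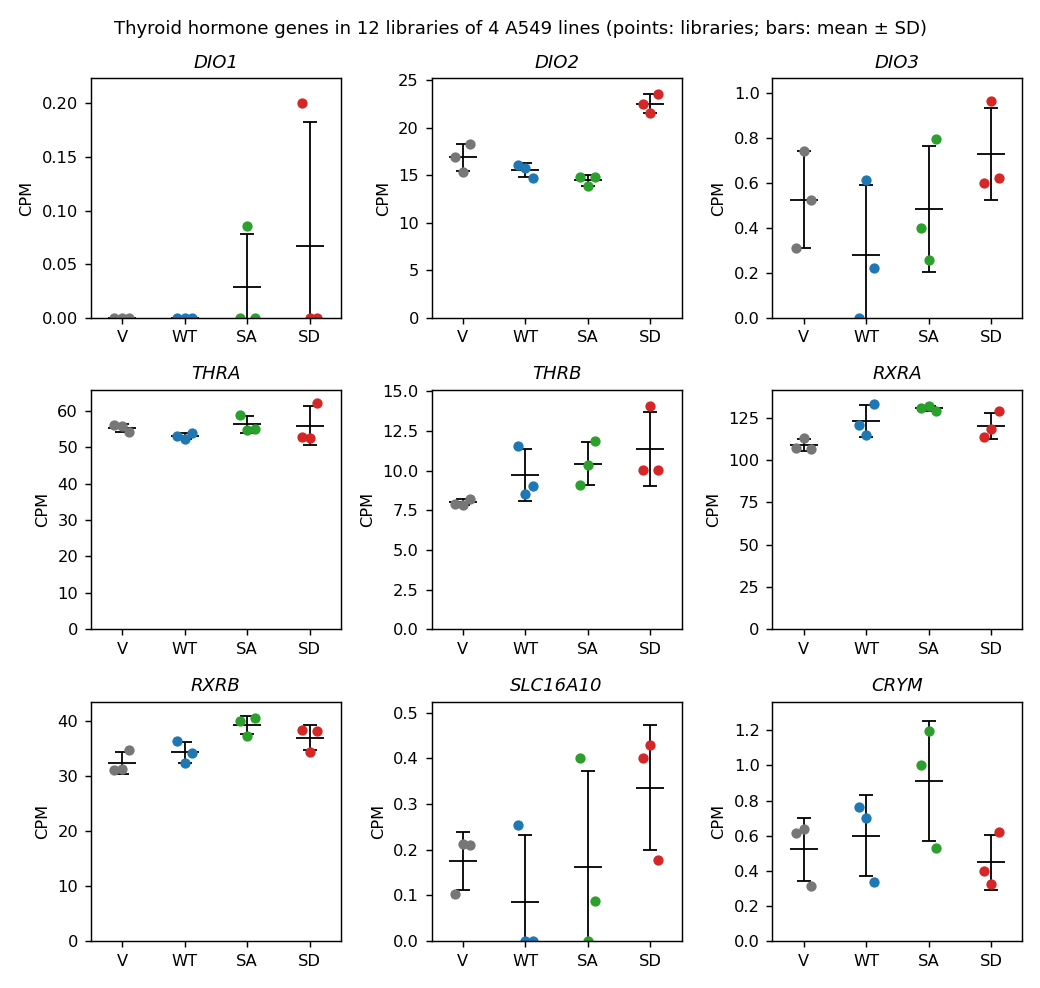
Level of each of the 9 members (y axis, CPM, from 0) in the 3 libraries of V, WT, SA and SD (x axis), with the mean and standard deviation as bars. The 3 SD libraries of DIO2 lie at 21.6 to 23.5 CPM, above the other 9, which lie at 13.8 to 18.3, while DIO1, DIO3, SLC16A10 and CRYM do not exceed 1.20 CPM.

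Because AHR and TH receptors act at promoters, the 250 bases before the RefSeq transcript starts (GRCh38.p14) were searched for 4 short motifs. RefSeq entries were found for 8 of the 9 members, with 12 starts between them. The motifs were the core of the AHR response element (XRE, GCGTG, both strands), the cyclic AMP response element (CRE, TGACGTCA, both strands), TATAAA (same strand) and the half-site of TH receptors (AGGTCA, both strands). Of 35116 promoters of this length, 32.2% held the XRE core, 1.65% the CRE, 6.80% TATAAA and 12.1% the half-site. RefSeq gives DIO2 and RXRA 2 starts each, of which 1 is shown. The windows below are shown because DIO2 differed between SD and every other line, RXRA between SA and V, and DIO1 was almost silent. Letters in capitals mark motif matches, and all 3 sequences run 5′ to 3′ on the gene's own strand.
DIO2, chr14:80212179-80212428, minus strand: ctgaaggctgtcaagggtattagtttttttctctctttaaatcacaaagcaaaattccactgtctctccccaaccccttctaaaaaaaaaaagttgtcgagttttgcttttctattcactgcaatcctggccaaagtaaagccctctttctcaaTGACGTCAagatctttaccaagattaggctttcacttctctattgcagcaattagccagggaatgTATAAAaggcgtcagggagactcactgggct
RXRA, chr9:134326205-134326454, plus strand: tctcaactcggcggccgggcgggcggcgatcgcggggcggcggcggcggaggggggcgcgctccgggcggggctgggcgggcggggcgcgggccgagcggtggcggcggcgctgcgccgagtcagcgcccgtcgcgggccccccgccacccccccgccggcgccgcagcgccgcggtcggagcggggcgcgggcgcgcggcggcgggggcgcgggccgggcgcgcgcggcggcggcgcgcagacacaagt
DIO1, chr1:53893937-53894186, plus strand: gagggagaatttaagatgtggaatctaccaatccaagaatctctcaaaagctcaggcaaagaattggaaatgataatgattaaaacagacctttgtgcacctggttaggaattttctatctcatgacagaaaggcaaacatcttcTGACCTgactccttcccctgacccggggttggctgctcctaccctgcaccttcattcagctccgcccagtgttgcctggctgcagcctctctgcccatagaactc
The DIO2 window shown held the CRE 96 bases and TATAAA 31 bases before the start, counted from the first base of the motif, and no XRE core. The window of the other DIO2 start (chr14:80211505-80211754, 46.4% G or C) held none of the 4 motifs. The RXRA window shown held none of the 4 motifs, and 89.2% of its bases were G or C against 40.8% for DIO2, and that of the other RXRA start (64.4% G or C) held none either. In the DIO1 window the half-site lay 105 bases before the start on the opposite strand. The XRE core was found in a window of 3 members, THRB, RXRB and SLC16A10. TATAAA was found in a window of 3 members, DIO2, DIO3 (32 bases before the start) and THRB (182 bases before the start). A match is a description of the letters only, and the absence of one in these windows says nothing of AHR binding elsewhere.

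To place the pattern of DIO2 among the other genes, its log2 CPM was correlated with that of 15452 genes over the 12 libraries. Since these are 4 lines of 3 libraries, with SD apart from the rest, the values are descriptive. The gene with the lowest coefficient was PLK1 (Pearson r = −0.92), the mitotic kinase that the study places upstream of AHR. PLK1 was at 155, 166 and 156 CPM in SD and at 174 to 189 CPM in the other 9 libraries. The line with the most DIO2 transcript thus had the least PLK1 transcript. The study reports a positive correlation of both transcripts in LUAD tumours. It also reports that PLK1 regulated DIO2 protein when PLK1 was induced or depleted in A549 cells. Those are other samples and measures, and the relation of PLK1 to DIO2 was not tested here. The log2 fold change of PLK1 was −0.17 in SD against WT (standard error 0.06), −0.22 against SA (0.06) and −0.16 against V (0.06), and none passed the adjustment (adjusted p = 0.214, 0.155 and 0.108, edgeR). Among the 9 libraries without SD the coefficient was −0.54, and over deviations from the line means it was −0.22. The next lowest were FBXL22 (−0.88), SH3BP1 (−0.88), CDCA7L (−0.86) and CEP55 (−0.86), the last a protein of cytokinesis. The highest were SLC35B1 (0.89), a nucleotide transporter of the endoplasmic reticulum, GPCPD1 (0.89), the anthrax toxin receptor ANTXR1 (0.89), the phosphodiesterase PDE10A (0.88) and ENSG00000247735 (0.87). Within lines, over deviations from the line means, the coefficient was 0.59 for SLC35B1, 0.72 for GPCPD1 and −0.71 for SH3BP1, all picked on these same libraries. SLC35B1 was at 53.1 to 61.1 CPM outside SD and 61.7 to 63.9 in SD, and it was not called in SD against WT, SA or V (adjusted p = 0.572, 0.348 and 0.649, edgeR). Of the other members, THRB (0.27), THRA (0.14), RXRB (0.09) and RXRA (−0.33) followed DIO2 far less.

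**Figure D3:**
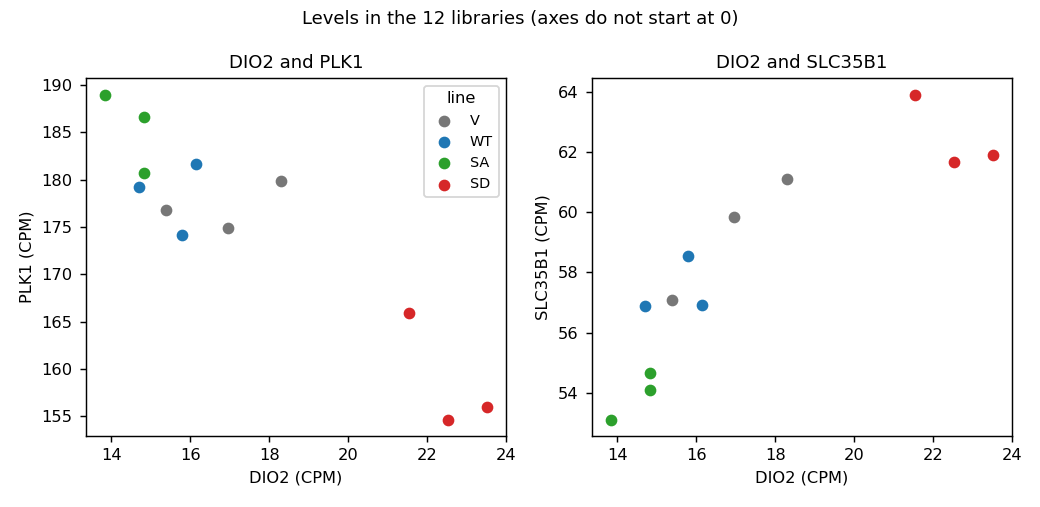
DIO2 (x axis, CPM) against PLK1 (left, y axis, CPM) and SLC35B1 (right, y axis, CPM) in the 12 libraries, coloured by line; the axes do not start at 0. The SD libraries form a group of their own with DIO2 at 21.6 CPM or more and PLK1 at 166 CPM or less.

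The TH receptors were expressed in all lines with small differences. THRA (ENSG00000126351; chromosome 17, 40058290 to 40093867, plus strand), the receptor form that dominates in many tissues outside the liver, was at 56.1, 55.8 and 54.1 CPM in V and 53.1, 52.3 and 53.9 CPM in WT. SA libraries had 58.8, 54.8 and 55.1 CPM and SD libraries 52.8, 52.6 and 62.0 CPM. The SD libraries overlapped those of the other lines, with SD replicate 3 the highest of all 12. No comparison of THRA was called (adjusted p = 0.833 over the 4 lines), and the approximate 95% intervals of its 6 log2 fold changes lay within −0.22 to 0.23. NR1D1, a gene on the opposite strand, shares 473 exonic bases with THRA, which is 6.45% of those of THRA. Whether the libraries kept strand is not given in the sources used here, so reads of the shared bases cannot be told apart. The means of NR1D1 lay between 18.0 CPM in SD and 18.9 in SA, and SD replicate 3 was high for it too, at 21.4 CPM against 17.3 and 15.2 in the other SD libraries. MED24 overlaps THRA without a shared exonic base.

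THRB (ENSG00000151090; chromosome 3, 24117153 to 24495756, minus strand), the main receptor of liver and pituitary, was at 7.92, 7.85 and 8.21 CPM in V. WT libraries had 11.6, 8.51 and 9.02 CPM, SA libraries 9.12, 10.3 and 11.8, and SD libraries 10.0, 14.0 and 10.1. All 9 libraries of the AHR lines were above all 3 V libraries, while WT, SA and SD overlapped one another. The log2 fold change over V was 0.50 in SD (standard error 0.17, adjusted p = 0.0913), 0.39 in SA (0.17, adjusted p = 0.188) and 0.27 in WT (0.18, adjusted p = 0.476). None passed the adjustment, and the 4 lines together gave an adjusted p of 0.236. SD replicate 2 was the highest library, and without it the value of SD against V was 0.33 (adjusted p = 0.430).

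**Figure D4:**
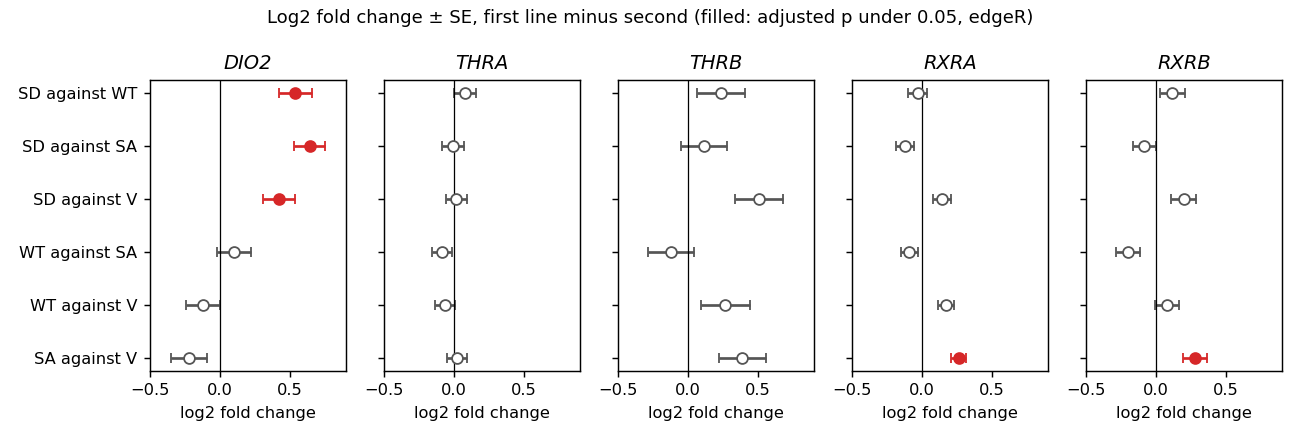
Log2 fold change (x axis) with its standard error for the 5 members that could be tested, in the 6 pairs of lines (y axis), as the first line minus the second. Filled points are those with an adjusted p under 0.05: DIO2 in the 3 comparisons of SD, and RXRA and RXRB in SA against V.

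The retinoid X receptors differed between SA and V. RXRA (ENSG00000186350; chromosome 9, 134317098 to 134440585, plus strand), a partner of TH receptors and of many other nuclear receptors, was at 107, 113 and 107 CPM in V. WT libraries had 121, 115 and 133 CPM, SA libraries 131, 132 and 129, and SD libraries 114, 118 and 129. The highest V library lay below all 9 libraries of the AHR lines. RXRA was 19.8% higher in SA than in V (log2 fold change 0.26, standard error 0.06, adjusted p = 0.00315), and this call held without each of its 6 libraries and under the 6 other alternatives (adjusted p at most 0.0319). The log2 fold change was 0.17 in WT against V (standard error 0.06, adjusted p = 0.0992, or 0.0380 without WT replicate 2) and 0.14 in SD against V (standard error 0.06, adjusted p = 0.219). The difference between SD and SA was itself not called (−0.12, adjusted p = 0.609), so RXRA was not shown to differ among the AHR lines. Over the 4 lines the adjusted p of RXRA was 0.0430, and it was 0.05 or more without V replicate 1, 2 or 3, WT replicate 1, SA replicate 1, 2 or 3, or SD replicate 2 (up to 0.177).

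RXRB (ENSG00000204231; chromosome 6, 33193588 to 33200688, minus strand) was at 31.2, 31.3 and 34.7 CPM in V and 36.3, 32.5 and 34.2 in WT. SA libraries had 40.0, 37.4 and 40.5 CPM and SD libraries 38.3, 34.4 and 38.3. The SA libraries were above all V and WT libraries. RXRB was 21.2% higher in SA than in V (log2 fold change 0.28, standard error 0.08, adjusted p = 0.0410). This call was lost without V replicate 1, V replicate 2 or any SA library (adjusted p up to 0.168) and with DESeq2 (adjusted p = 0.159). Against WT the difference was 0.20 on the log2 scale (WT against SA −0.20, standard error 0.08, adjusted p = 0.624). SLC39A7 lies on the opposite strand and shares 361 exonic bases with RXRB, 9.26% of those of RXRB. SLC39A7 was at 106 CPM in SA and 99.2 in V (log2 fold change 0.09, adjusted p = 0.466). RXRG, the third retinoid X receptor, had no count in any library. The other antisense or overlapping genes with counts were THRB-AS1 (18 counts over all libraries), CRYM-AS1 (34) and ANKS4B (1), and DIO2-AS1 had none.

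Of the 5 members tested, only DIO2 was called between SD and any other line, 1 member in each comparison. The study had picked DIO2 from these same libraries. Over all genes tested, the share called for SD was 0.708% against WT, 0.22% against SA and 5.41% against V. None of the 5 was called in WT against SA or in WT against V, where 0.0803% and 5.24% of all genes were called, although 1 of them had an unadjusted p under 0.05 in each (RXRB and RXRA). DESeq2 also called 0 members in both. In SA against V 2 were called against 7.17% of all genes, and over the 4 lines 2 (DIO2 and RXRA) against 6.41%. The median log2 fold change of the 5 members was 0.26 in SA against V, 0.20 in SD against V and 0.08 in WT against V, where the median of all genes lay between −0.002 and 0.003. For SD it was 0.11 over WT and −0.01 over SA, and for WT it was −0.09 over SA. Libraries of the 2 lines did not overlap for 1 member when SD was set against WT (16% of all genes), 2 against SA (13.6%) and 3 against V (21.4%). The counts were 2 between WT and SA (12.8%), 3 in WT against V (21.9%) and 4 in SA against V (23.8%). The comparisons against V share the V libraries.

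Transport and binding of TH were served by few transcripts among the members. SLC16A10 (MCT10), a carrier of T3 and aromatic amino acids, had 1, 2 and 2 counts in V, 2, 0 and 0 in WT, 4, 0 and 1 in SA and 4, 4 and 2 in SD. CRYM, a cytosolic protein that binds T3, had 6, 6 and 3 counts in V, 6, 8 and 3 in WT, 10, 14 and 6 in SA and 4, 3 and 7 in SD. Together with DIO1 and DIO3 these were the 4 members below the filter on low counts. Over their 24 pairwise comparisons no exact permutation test of CPM (two-sided, 3 libraries against 3, smallest possible p = 0.1) gave a p under 0.2, and the smallest adjusted p was 0.738. The libraries overlapped in all 24.

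Further carriers of TH were taken from a list, of which 11 are reported here and 6 could be tested. SLCO2B1, an organic anion carrier, was at 0.926, 0.212 and 1.47 CPM in V and 2.91, 3.93 and 3.09 in SA (log2 fold change 1.91, standard error 0.43, adjusted p = 0.00472). All SA libraries of SLCO2B1 were above all V libraries. It also exceeded V in every WT library (log2 fold change 1.5, adjusted p = 0.0532) and every SD library (1.51, adjusted p = 0.0731), and neither value passed the adjustment. SLCO2B1 was the 1 of the 6 called in SA against V by edgeR, where 7.17% of all genes were called, and DESeq2 called it too. Its V libraries held only 9, 2 and 14 counts, of which V replicate 2 lay below the limit of 3 counts. The other 5 pairs of lines gave 0 calls by either tool, although DESeq2 gave an adjusted p for only 2 of the transporters in SD against WT. An unadjusted p under 0.05 was found for 1 of the 6 genes in SD against WT (10.6% of all genes). The number was 2 in SD against V (17.4%) and 2 in WT against V (17.4%). In SA against V it was 3 (19.98%), and in the other pairs among the AHR lines 0. SLC7A5 and SLC3A2, the subunits of the amino acid carrier LAT1, were the most abundant, at 323 and 77.8 CPM per kb, and SLC17A4 had no count.

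**Figure D5:**
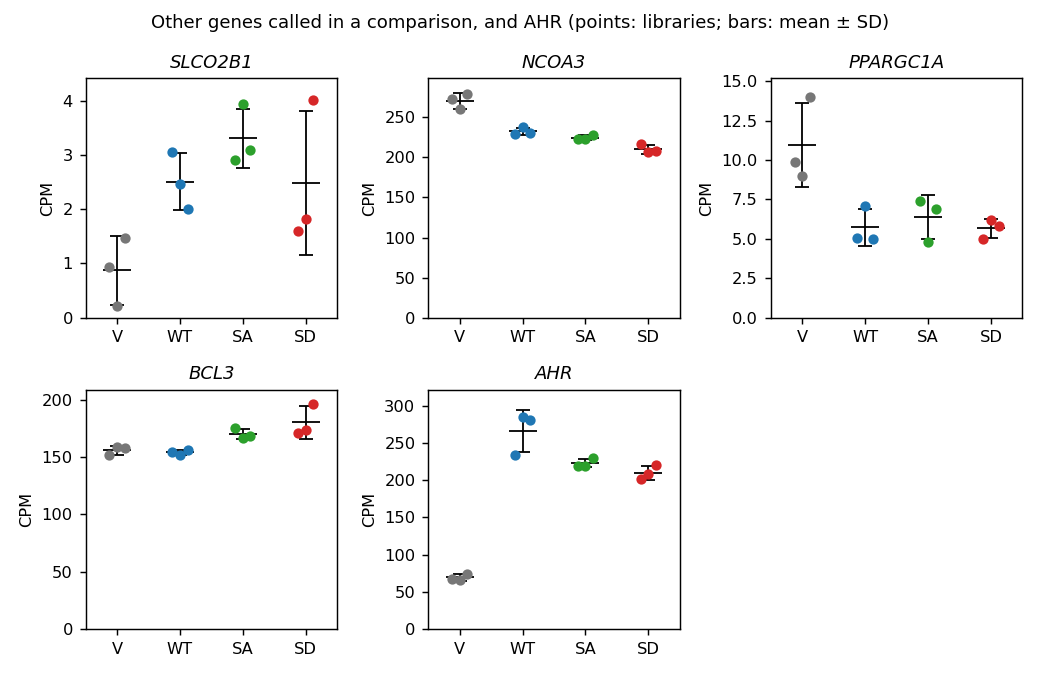
Level (y axis, CPM, from 0) of 4 other TH pathway genes called in a comparison, and of AHR, in the 3 libraries of each line (x axis), with mean and standard deviation as bars. SLCO2B1 lies at 0.212 to 1.47 CPM in V and at 2.91 to 3.93 in SA, NCOA3 and PPARGC1A are highest in V, and BCL3 has its highest mean in SD.

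Of 14 receptor partners and coregulators 13 were tested, and 1 was called against V in each AHR line, where 5.41% of all genes were called for SD, 5.24% for WT and 7.17% for SA. This was NCOA3, a p160 coactivator of nuclear receptors, at 273, 260.4 and 279.7 CPM in V and 207 to 238 CPM in the AHR lines. It was lower than in V by a log2 fold change of −0.36 in SD (standard error 0.05, adjusted p = 5.83e-05), −0.27 in SA (0.05, adjusted p = 5.78e-04) and −0.22 in WT (0.05, adjusted p = 0.00264). The median of the 13 in SD against WT was −0.06, with 5 higher and 8 lower and 0 called by edgeR or DESeq2, and 2 had an unadjusted p under 0.05.

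Genes known as TH targets in liver, muscle, heart or brain were next examined, of which 13 of 20 were tested. SD exceeded WT for 11 of them and was below it for 2, the median being 0.15 on the log2 scale against −0.001 for all genes. EdgeR called 0 of the 13 (0.708% of all genes), and DESeq2, which gave an adjusted p for 8, called BCL3 (116 of 3959 genes). An unadjusted p under 0.05 was reached by 7 of the 13 in this comparison, against 10.6% of all genes. Between SD and SA 2 of the 13 reached it (8.52% of all genes), and between SD and V 5 (17.4%). SD exceeded SA for 9 of the 13 (median 0.09), WT exceeded V for 2 of the 13 (median −0.11), and WT exceeded SA for 3 (median −0.11). These comparisons share libraries and each is given on its own. The list was chosen with earlier results of these data known, so its counts are not independent evidence of a TH response. The targets called by edgeR were BCL3 and PPARGC1A. DESeq2 called PPARGC1A against V in each AHR line, and ATP2A2 in WT against V, where it called 820 of 14165 genes. BCL3, a nuclear cofactor of NF-kappaB, was at 170.5, 173 and 196 CPM in SD and 151, 158 and 158 in V (log2 fold change 0.21, standard error 0.06, adjusted p = 0.0347), a difference that DESeq2 did not call. In SD against WT its log2 fold change was 0.23 (edgeR adjusted p = 0.0825). PPARGC1A, the coactivator of mitochondrial genes, was at 9.87, 9.02 and 14.0 CPM in V and 4.78 to 7.41 CPM in the AHR lines. Its log2 fold change against V was −0.95 in SD (standard error 0.19, adjusted p = 0.00261), −0.91 in WT (0.20, adjusted p = 0.00475) and −0.79 in SA (0.20, adjusted p = 0.0134). KLF9, a direct receptor target named after its values were seen, had means of 11.7 CPM in SD, 10.0 in V, 9.62 in SA and 8.86 in WT. Its SD libraries, at 13.7, 9.22 and 12.1 CPM, overlapped those of WT, at 8.64, 10.4 and 7.57. In SD against WT KLF9 was not called (log2 fold change 0.39, edgeR adjusted p = 0.406). G6PC1, CYP7A1 and MYH6 had no count.

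The genes that control the deiodinase proteins were not called. DIO2 is a selenoprotein, and its list held genes of selenocysteine insertion together with the ubiquitin ligases and deubiquitinases that set its turnover. All 10 genes were tested and 0 were called in the 6 pairs by edgeR or DESeq2, which gave an adjusted p for only 3 of them in SD against WT. An unadjusted p under 0.05 was reached by 3 of them in SD against SA (8.52% of all genes), 3 in SA against V (19.98%), 1 in SD against V (17.4%), 1 in WT against SA (7.31%) and 0 in the other comparisons. SD exceeded WT for 6 of them (median log2 fold change 0.02). The highest values were those of PSTK (0.27, adjusted p = 0.801), TRNAU1AP (0.16, adjusted p = 0.805) and MARCHF6 (0.14, adjusted p = 0.508), and the lowest those of SEPSECS (−0.04, adjusted p = 0.961), SEPHS2 (−0.03, adjusted p = 0.927) and USP33 (−0.03, adjusted p = 0.935). MARCHF6 is a ligase of the endoplasmic reticulum and USP33 a deubiquitinase that acts on DIO2.

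Of 9 synthesis genes, TSHR and IYD had no count, and FOXE1, a thyroid transcription factor, was the only one tested in SD against WT (0.04, adjusted p = 0.936), at 16.8 to 21.6 CPM (5.39 CPM per kb). None of the 3 carriers could be tested, and SERPINA7 had no count. Of 8 conjugating enzymes the sulfotransferases SULT1A1 (0.22, adjusted p = 0.610) and SULT1A3 (0.43, adjusted p = 0.658) were tested in SD against WT, at means of 1.54 and 2.95 CPM per kb over the 12 libraries. SULT1A3 has a near-identical copy, so the split of its reads is uncertain. SULT1B1 and SULT1E1 had no count. Over the 75 genes of these 7 lists, 45 were tested in SD against V, of which 3 were called, or 6.67% against 5.41% of all genes.

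Some sums of cell type markers also differed between lines, whereas those of alveolar type II, endothelial and thyroid follicular markers overlapped. The summed level of the 5 epithelial markers was 7460 to 7848 CPM in V, 6306 to 6409 in WT, 6099 to 6273 in SA and 5636 to 5947 in SD, the line with the most DIO2. Nearly all of this sum was KRT7, KRT8 and KRT18. The 5 fibroblast markers summed to 10.3 to 13.5 CPM in V and 5.59 to 9.35 in the AHR lines, nearly all of it COL1A1. The 5 leukocyte markers summed to 21.7 to 28.4 CPM in V and 28.1 to 36.7 in the AHR lines, nearly all of it CD68, with PTPRC and LYZ at no more than 0.171 CPM. The 5 alveolar type II markers summed to 2.89 to 4.61 CPM, nearly all of it NAPSA. The 4 endothelial markers stayed at or under 0.316 CPM. The 5 thyroid follicular markers summed to 17.4 to 22.5 CPM, nearly all of it FOXE1. The part of these differences, and of the AHR level, in the results on the members was not tested. In RNA of whole cultures, fewer cells of a type and less RNA per cell cannot be told apart.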

How the data were processed

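RNA-seq was performed on poly(A) libraries of 4 A549 lines with 3 libraries each, 12 in all. Reads had been trimmed by the authors with Trimmomatic (v0.39) and assigned to GRCh38 transcripts with RSEM, per the labels and the supplementary methods, and the deposited table holds the expected counts of each gene and library without normalization. Reads that match more than one gene are split among them by RSEM, so near-identical copies are uncertain. Its version, the annotation release and whether the libraries kept strand are not given in the sources used here. A further deposited table holds the authors' own log2 fold changes, p-values and q-values for genes ordered SD > WT > SA = V and was not used.

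Expected counts were rounded and tested in R 4.3.3 with edgeR 4.0.16: filterByExpr (minimum count 10, minimum total count 15), TMM and the two-sided quasi-likelihood test on the 6 libraries of each pair of lines, and over all 12 libraries for any difference among the 4 lines. P-values were adjusted over all genes tested (Benjamini-Hochberg) and called under 0.05. The study's methods name edgeR without the test or the filter. Standard errors were taken from the F statistics, and approximate 95% intervals are 1.96 standard errors wide on each side. Library totals lay between 7844045 and 11765576. Members below the filter were compared with exact permutation tests. Exon lengths and overlapping genes came from GENCODE 44, and deposited coordinates are printed. Promoter windows came from RefSeq (GRCh38.p14). All 9 members were named, and of the other lists the genes called by edgeR, or else the 3 highest and 3 lowest in SD against WT, and those without a count. KLF9, SLC7A5, SLC3A2 and ATP2A2 were named outside this rule. For DIO2, the 5 genes with the highest and the 5 with the lowest correlation were named. No 2 libraries of a line agreed within sampling noise. Alternatives were DESeq2 1.42.0, its size factors, 2 other filters, all 12 libraries in one fit, a replicate block, each library left out, another gene length and library totals in place of TMM. The fits were tested on simulated data. The members and lists were chosen with earlier results of these data known. Some listed genes are not reported here, and the counts of their lists and the marker sums are given without them.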

Additional observations from a re-analysis of the deposited data

How the results depend on the processing

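Of 356 recomputed log2 fold changes of the 5 tested members in the 6 pairs of lines, 327 kept their direction and their side of the threshold, 18 lost a call, 1 gained one and 10 changed sign. The changes of sign all came from leaving out 1 library and concerned small values that were never called: THRA ranged from −0.00793 to 0.115 in SD against WT, from −0.0897 to 0.0327 in SD against SA, from −0.0677 to 0.0581 in SD against V and from −0.00780 to 0.0426 in SA against V, RXRA from −0.0846 to 0.0283 in SD against WT, and THRB from −0.0583 to 0.216 in SD against SA. With 1 library left out, the number of members called ranged from 0 to 0 in SD against WT, 0 to 1 in SD against SA, 0 to 1 in SD against V, 0 to 1 in WT against V, 1 to 2 in SA against V and 1 to 2 over the 4 lines; these fits have fewer samples. DESeq2 called 0 members in SD against V and 1 in SA against V, and gave no adjusted p for DIO2 in SD against WT (unadjusted p = 6.57e-04). Library totals in place of TMM moved no level by more than its standard deviation.

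Correlations of same-numbered libraries, over deviations from the line means, lay between −0.04 and 0.11, and between 0.02 and 0.06 among the AHR lines. These low values do not settle whether the replicate numbers pair the libraries. With the replicate block, 1 member was called for SD against each of WT, SA and V, 0 for WT against SA or V, 2 for SA against V and 2 over the 4 lines, the same numbers as without it. Counts over all genes moved more. In SD against WT they were 105, or 251 with every gene of at least 1 count and 245 with the block; for SD against SA they were 33, 150 and 165, and for WT against SA 12, 93 and 24, and 5 with all 12 libraries in one fit. They were 806, or 498 with DESeq2, in SD against V, 774, or 507 with the block, in WT against V, 1069, or 710 with DESeq2, in SA against V, and 990, or 1505 with every gene of at least 1 count, over the 4 lines. With 1 library left out they ranged from 45 (without WT replicate 1; also below by over 1.5 times without WT replicate 3 or SD replicate 2) to 136 in SD against WT, from 11 (SA replicate 2; also SA replicate 3, SD replicate 2) to 56 (SD replicate 3) in SD against SA, from 2 (WT replicate 2; also WT replicates 1 and 3) to 25 (SA replicate 1) in WT against SA, from 502 (V replicate 3; also V replicates 1 and 2, SD replicate 2) to 856 in SD against V, from 440 (V replicate 1; also WT replicate 3) to 720 in WT against V, from 620 (V replicate 1; also V replicate 3, SA replicate 3) to 1194 in SA against V and from 572 (V replicate 1; also V replicate 3) to 1072 over the 4 lines. The causes were not tested. Depth limits DIO1, DIO3, SLC16A10 and CRYM, with at most 14 counts in a library.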
